A study of Mus musculus with 40 samples.

Results

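Epithelial and stromal cells of the healthy mouse colon were compared, each as 4 libraries, which together made 8 of the 40 libraries and 2 of the 10 groups of the series. The 8 libraries were chosen by their group labels, and no measured value took part in the choice. The series studied colon tumors of mice, and its other groups held tumor epithelial and stromal cells, and neutrophils and monocytes from tumors and from blood. The healthy mice were labeled C57Bl6, with no transgene and no agent, and their age and sex are not given in the sources used here. Colon had been minced and digested with collagenase IV, Dispase and DNase I, and cells were sorted as EpCAM+ CD45- for the epithelium and as EpCAM- CD45- for the stroma. EpCAM is an adhesion molecule of the epithelial surface and CD45, which Ptprc encodes, marks leukocytes, so the stromal gate was set by what its cells lacked and held a mixture of cell types. By their titles the libraries came from single animals, and replicate 4 of both compartments carried the same animal name, a. The tumor libraries that are set beside them at the end came from Cdx2CreERT2 - Apc fl/fl mice of strain C57Bl6/Sv129, in which tamoxifen at 25 mg/kg, given at 8 to 10 weeks of age by the labels and up to a somewhat later age by the study's methods, activates a Cre recombinase under control of Cdx2 that deletes both copies of Apc.

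The colon wall is lined by a single sheet of epithelial cells folded into crypts. Stem cells at the crypt base renew the sheet, and their descendants become absorptive colonocytes, mucus-secreting goblet cells, enteroendocrine cells and tuft cells as they move toward the lumen. A basement membrane separates the sheet from the stroma, which holds fibroblasts, smooth muscle, blood and lymphatic vessels with their pericytes, and enteric glia and neurons. The compartments signal to each other across this membrane: Hedgehog ligands of the epithelium act on stromal cells, and stromal Wnt ligands, R-spondins, BMPs and their antagonists are known to set where along the crypt the epithelium divides or matures.

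Expected counts on genes totaled 15993085 to 38002939 per epithelial library and 13032019 to 26516975 per stromal library, of which 6136669 to 12039888 and 11001633 to 21073703 fell on nuclear genes. The remainder lay on the mitochondrial chromosome, mostly on its ribosomal RNAs. The chromosome as a whole took 67.4%, 48.8%, 48.6% and 83.9% of the counts of epithelial replicates 1 to 4 and 20.5%, 16.6%, 15.6% and 24.9% of those of stromal replicates 1 to 4. Levels are therefore given as RPKM, reads per kilobase of transcript scaled to the reads mapped in a library, after each library was multiplied by 1 factor that brings it to the common scale of the count test (rescaled RPKM). Over 8314 genes, Pearson's r of log2(CPM + 1) was 0.851 to 0.967 within epithelium, 0.812 to 0.948 within stroma and 0.0914 to 0.303 between them. Both libraries of animal a stood apart, since r without them was 0.902 to 0.967 within epithelium and 0.941 to 0.948 within stroma. The sorting genes went with the labels. Epcam was at 66.3, 70.7, 69.99 and 52.3 rescaled RPKM in epithelial replicates 1 to 4 and at 0.108, 0.0516, 0.183 and 2.99 in stromal replicates 1 to 4. Ptprc was at 0.0993, 0.0376, 0.0278 and 0.795 in epithelium and 0.658, 0.178, 0.744 and 0.539 in stroma (-1.17 ± 0.99, adjusted p = 0.396), low in all 8, and without epithelial replicate 4 it was called higher in stroma (-3.25, adjusted p = 0.005). In sentences that follow, 4 values in a row are replicates 1 to 4 of a compartment.

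Of 18468 genes tested with the edgeR quasi-likelihood test, 5702 (30.9%) were called, which means an adjusted p under 0.05 with a log2 fold change of more than 1.5 in either direction. In epithelium 2127 genes (11.5%) were higher and in stroma 3575 (19.4%). Counts in the gene lists below are to be read beside these shares. Fold changes are epithelium minus stroma on the log2 scale, with their standard error (SE), and their median over all genes tested was -0.14. The counts of called genes rest on the scale and filter used. Genes with at least 10 counts in every library gave 1157 calls in epithelium and 1088 in stroma, so that 51.5% of calls were epithelial, against 37.3% above. Limma on log2(RPKM + 1) gave 425 and 1694 (20.1%), and on log2(RPKM + 0.1) 991 and 5462 (15.4%), where the median of all genes moved to -0.33 and -0.92. These limma fits used the deposited RPKM, without the factors that rescale them. The factors were 0.877 to 4.51 in epithelium and 0.66 to 0.76 in stroma. For 982 of the called genes, the lower compartment had at most 3 counts in every library, so that only a lower bound of the fold change is known, computed against 3 counts in each of those libraries. In bulk libraries fewer cells of a type and less RNA per cell cannot be told apart. The replicates come from separate animals by title only, and p-values measure the spread between these libraries.

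**Figure D1:**
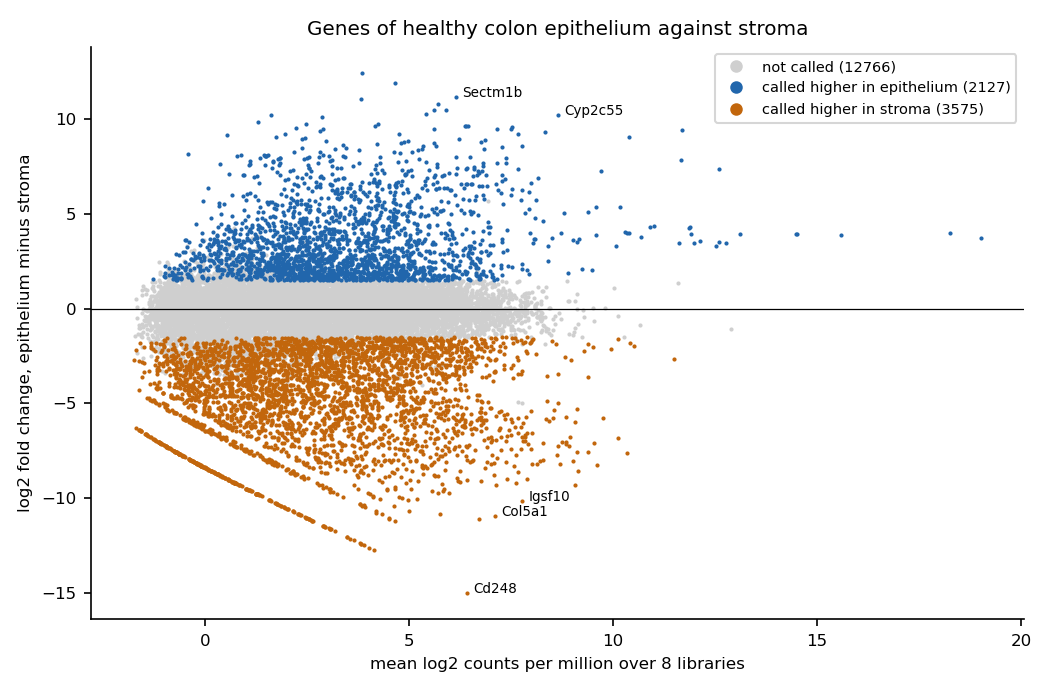
Each point is 1 of 18468 genes, plotted by its mean log2 CPM, a count scaled to its library's size, over the 8 libraries and its log2 fold change, epithelium minus stroma. Blue points are the 2127 genes called higher in epithelium, orange points the 3575 called higher in stroma, and the diagonal streaks at the lower left are genes with hardly any counts in epithelium, whose fold changes are not measured values.

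Called genes that reached a mean log2 CPM of 5, and whose compartments did not overlap, numbered 434 in epithelium and 634 in stroma. Of these the 10 with the largest change in epithelium were Sectm1b, Slc6a14, Sult1b1, Hao2, Pof1b, Cyp2c55, Sprr2a1, Sprr2a3, Sprr2a2 and Gsdmc2. Sectm1b (ENSMUSG00000039364, chromosome 11, 121053458 to 121063569 of mm10, minus strand) was at 6.35, 23, 17.1 and 16.4 rescaled RPKM in epithelium and at most 0.011 in stroma, at least 1455-fold lower. Slc6a14, an amino acid transporter, was at 10.5, 7.68, 12.8 and 6.95 in epithelium and at most 0.0155 in stroma (10.78 ± 0.73, adjusted p = 2.33e-05). Hao2, a peroxisomal hydroxyacid oxidase, was at 16.2, 19.9, 20.02 and 16.6 against at most 0.0479 (10.47 ± 1.10, adjusted p = 1.43e-04). Most abundant of the 10 was Cyp2c55, a cytochrome P450 that oxidizes fatty acids, at 88.3, 161, 156 and 106 in epithelium and 0.00106, 0.00192, 0.00589 and 0.427 in stroma (10.20 ± 1.83, adjusted p = 0.00205). In stroma its level in replicate 4 was the highest, and this was so for every one of the 10. The 3 Sprr2a genes and Gsdmc2 have near-identical copies, and how the counting split reads among copies is not stated, so their values are uncertain.

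In stroma the 10 largest were Cd248, Mfap4, Col5a1, Crispld2, Kcna2, Igsf10, Gli3, Htra3, Cadm3 and Reck. Cd248 (endosialin, a surface protein of fibroblasts and pericytes; ENSMUSG00000056481, chromosome 19, 5068078 to 5070682, plus strand) had no count in any epithelial library and was at 6.56, 6.7, 8.94 and 60.7 rescaled RPKM in stroma, at least 713-fold higher. Mfap4, a protein of elastic fibers, was at 31.9, 38.5, 44.2 and 28 and at most 0.0752 in epithelium, at least 880.0-fold higher. Igsf10, an immunoglobulin superfamily protein, was at 12.4, 13.8, 8.47 and 31.7 against at most 0.0463 (-10.15 ± 0.97, adjusted p = 9.34e-05). The stromal values of Mfap4 lay close together, whereas Cd248 was far higher in replicate 4 than in the others. Gli3, a transcription factor of the Hedgehog pathway, was at least 306-fold higher.

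Markers of 25 cell types and states were set against the libraries to see what each compartment held. Of 16 markers of epithelial cells in general, 14 were called, all higher in epithelium, with a median log2 fold change of 5.96. Their summed level was 408 to 461 rescaled RPKM in the epithelial libraries and 5.51 to 17.3 in the stromal ones. Cdh1, the cadherin of epithelial adherens junctions, was at 36.7, 42.8, 42.3 and 31.7 in epithelium and 0.078, 0.0272, 0.0259 and 1.15 in stroma (6.90 ± 1.35, adjusted p = 0.00324). Krt20, the keratin of mature surface cells, was at 13.1, 30.1, 31 and 41.4 and 0.00494, 0.0022, 0.00149 and 0.449 (8.00 ± 1.66, adjusted p = 0.00434). Both genes were far higher in stromal replicate 4 than in any other stromal library, and far below every epithelial library in it. The 2 that were not called, Cldn3 (4.84 ± 1.71, adjusted p = 0.0502) and Cldn4 (2.78 ± 1.39, adjusted p = 0.145), were also highest in that library among the stromal ones. Without it both were called higher in epithelium (adjusted p = 1.53e-05 and 0.00603).

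**Figure D2:**
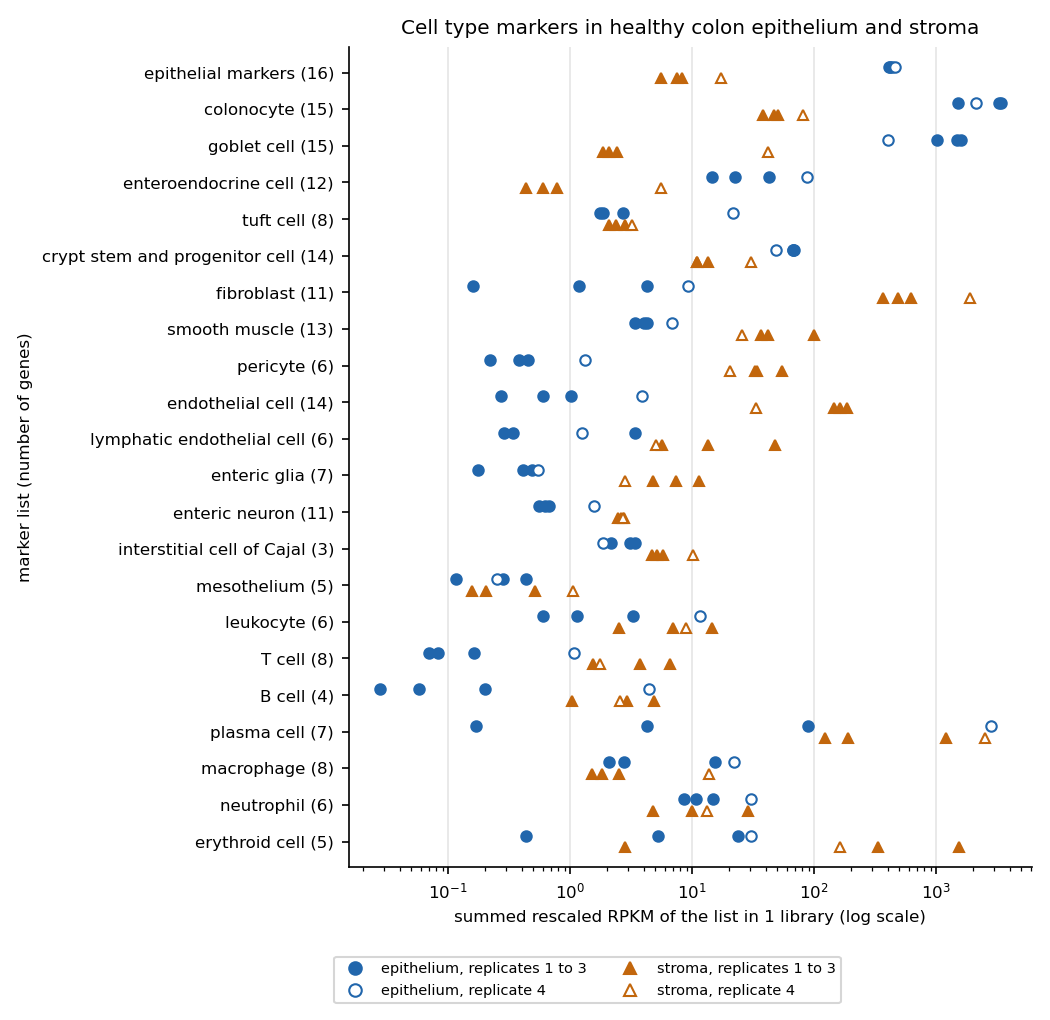
Each point is the summed rescaled RPKM of a marker list in 1 library, on a log axis, with epithelial libraries as blue circles, stromal libraries as orange triangles and replicate 4 of each hollow. The epithelial, fibroblast, smooth muscle, pericyte and endothelial lists split the compartments in all 8 libraries, and the plasma cell, macrophage and neutrophil lists did not.

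Among the mature lineages, 12 of 14 colonocyte genes tested were higher in epithelium (median 5.67). Lypd8, a secreted protein that keeps flagellated bacteria off the surface, was at 590.2, 2242, 2190.4 and 1274 in epithelium and 0.0401, 0.0818, 0.165 and 8.86 in stroma (9.43 ± 2.04, adjusted p = 0.00531). Car1, the abundant carbonic anhydrase of colonocytes, was at 675, 796, 677 and 486 and 0.0427, 0.192, 0.155 and 4.53 (9.06 ± 1.63, adjusted p = 0.0021). Epithelial replicate 1 held the least Lypd8, while Car1 varied less among the epithelial libraries. Car4, another carbonic anhydrase, was at 3.69, 4.64, 6.38 and 7.96 in epithelium and 2.18, 8.23, 5.39 and 0.651 in stroma and was not called (0.46 ± 0.64, adjusted p = 0.617), and neither was Emp1 (0.40 ± 0.33, adjusted p = 0.377).

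Of 15 goblet cell genes 14 were higher in epithelium (median 6.30). Muc2, the gel-forming mucin, was at 876, 383, 706 and 174 in epithelium and 0.0464, 0.0602, 0.0411 and 12.7 in stroma (7.38 ± 2.17, adjusted p = 0.0234). Zg16, a lectin of the mucus layer, was at 45.9, 43.7, 39.8 and 24.8 and 0.125, 0, 0 and 0.31 (8.41 ± 1.03, adjusted p = 3.13e-04). Both were lowest in replicate 4 among the epithelial libraries and highest in replicate 4 among the stromal ones. Of 7 enteroendocrine genes tested, 4 were higher in epithelium (7 without stromal replicate 4), among them the granule protein Chga at 0.834, 0.903, 2.12 and 4.14 against 0.238, 0.303, 0.138 and 0.134 (3.28 ± 0.62, adjusted p = 0.00263). Of 5 tuft cell genes tested, 2 were called without epithelial replicate 1 or 3, and with all libraries only Sh2d6 was (4.64 ± 1.22, adjusted p = 0.0138), and epithelial replicate 4 held 10.2 of it, against at most 0.876 in the other epithelial libraries. Dclk1, the marker most used for tuft cells, was at 0.127, 0.394, 0.21 and 2.28 in epithelium and 0.914, 1.3, 0.537 and 2.45 in stroma (-0.80 ± 0.86, adjusted p = 0.512), and without epithelial replicate 4 it was called higher in stroma (-2.39, adjusted p = 0.0145).

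Of 14 crypt stem and progenitor genes, 9 were higher in epithelium (median 2.28). Lgr5, the R-spondin receptor of crypt base stem cells, was at 2.04, 1.46, 1.14 and 0.523 in epithelium and 0.0413, 0.0166, 0.0255 and 0.102 in stroma (4.80 ± 0.67, adjusted p = 5.96e-04). Smoc2, which crypt base cells and fibroblasts both use, was at 1.46, 0.8288, 0.799 and 0.927 and 0.806, 0.58, 0.593 and 4.86 (-0.77 ± 0.71, adjusted p = 0.431). Of 16 proliferation genes 12 were higher in epithelium (median 2.46). Mki67, a protein of dividing cells, was at 13.3, 18.9, 14.1 and 11.8 against 1.08, 0.405, 0.69 and 1.44 (4.01 ± 0.42, adjusted p = 1.42e-04), with every epithelial library above every stromal one.

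The stromal lists went the other way. All 11 fibroblast markers were higher in stroma (median -8.05, or -7.61 with genes at their bound), and the summed level was 364 to 1887 in stroma and 0.159 to 9.33 in epithelium. Dcn, a small proteoglycan that binds collagen, was at 176, 345, 129 and 893 in stroma and 2.58, 0.0411, 0.536 and 4.82 in epithelium (-7.61 ± 1.44, adjusted p = 0.00269). Pdgfra, the PDGF receptor of fibroblasts, was at 8.18, 8.19, 6.35 and 17.1 and 0.105, 0.0361, 0.0456 and 0.042 (-7.44 ± 0.54, adjusted p = 2.86e-05). Both were highest in stromal replicate 4, where the fibroblast list summed to 1887, against at most 619 in the other stromal libraries. Of 13 smooth muscle genes 12 were higher in stroma (median -4.95), with Acta2, smooth muscle actin, at 26.3, 15.4, 9.94 and 5.22 against 0.40, 0.0991, 0.101 and 0.317 (-6.01 ± 0.71, adjusted p = 2.64e-04). Myh11, smooth muscle myosin, was at 28.4, 6.13, 5.82 and 3.71 against 0.264, 0.268, 0.377 and 0.522 (-4.95 ± 0.72, adjusted p = 7.12e-04). Stromal replicate 1 held the most of both muscle genes and replicate 4 the least.

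All 6 pericyte and all 14 endothelial genes were higher in stroma (medians -5.67 and -7.01). Rgs5, a pericyte regulator of G protein signaling, was at 41.3, 23.1, 23.3 and 10.3 in stroma and 0.0747, 5.35e-04, 0.0361 and 0.925 in epithelium (-6.66 ± 1.53, adjusted p = 0.00736). Cdh5, the cadherin between endothelial cells, was at 23, 24.2, 29.3 and 3.12 and 0.262, 0.0030, 0.0242 and 0.356 (-7.04 ± 1.33, adjusted p = 0.0027). The endothelial list summed to 144, 164, 185 and 33.4 in stromal replicates 1 to 4, so that replicate 4 had the least endothelial and the most fibroblast RNA. Of 6 lymphatic genes 5 were higher in stroma, or 3 without epithelial replicate 2 or 3 or stromal replicate 1 or 2, among them Mmrn1, a secreted protein of lymphatic endothelium, at 8.44, 1.73, 0.246 and 0.0761 and at least 207-fold higher. Its stromal values spanned a wide range, with replicate 1 highest. Of 7 enteric glia genes 6 were higher in stroma, with Kcna1, a potassium channel, at 4.81, 3.25, 1.7 and 1.15 against 0.0329, 0.00157, 0.00444 and 0.0295 (-7.49 ± 0.96, adjusted p = 3.95e-04). Of 6 enteric neuron genes tested 4 were higher in stroma, as were 2 of 3 genes of interstitial cells of Cajal (1 without stromal replicate 4) and 2 of 3 mesothelial genes.

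Blood cell transcripts were present in both compartments. EdgeR called none of the 6 leukocyte, 4 B cell, 6 plasma cell, 3 macrophage, 1 mast cell, 2 platelet and 5 sex-linked genes tested. At an unadjusted p under 0.05 there were 1 macrophage, 2 platelet and 1 sex-linked genes. Limma-voom called 2 leukocyte, 2 B cell, 1 plasma cell and 1 platelet genes, and DESeq2 called 1 macrophage and 2 platelet genes. The 5 sex-linked genes are Xist and the Y-linked Ddx3y, Kdm5d, Eif2s3y and Uty, so like sums need not mean like levels of each. They summed to 35.2 rescaled RPKM in epithelial replicate 4 and 31.8 in stromal replicate 4, with medians of 1.63 and 0.324. Whether these libraries, which share the name a, came from 1 animal was not tested. Igkc, the kappa light chain of antibodies, was at 66.6, 0.0458, 2.75 and 2218 in epithelium and 91.7, 153, 952 and 1737 in stroma (-0.36 ± 1.99, adjusted p = 0.908). Epithelial replicate 2 was almost without it. On the rescaled values epithelial replicate 4 was the highest of all 8 libraries. That order rests on its factor of 4.51, against 0.675 for stromal replicate 4. The plasma cell list summed to 0.171 to 2798 in epithelium and 122 to 2511 in stroma. Hbb-bs, a beta globin of red cells, was at 7.8, 0.0307, 1.34 and 10.4 in epithelium and 0.776, 63.7, 489 and 49.2 in stroma (-4.96 ± 1.83, adjusted p = 0.0587, or 0.0303 without stromal replicate 1), and 3 of 5 erythroid genes were higher in stroma (5 without stromal replicate 1, 0 without stromal replicate 3, and 1 without any 1 of epithelial replicates 1, 3 and 4 and stromal replicate 2), where the list summed to 2.81, 332, 1525 and 164. Of 4 T cell genes tested 3 were higher in stroma, or 1 when any 1 of replicates 1 to 3 of either compartment was left out, and of 6 neutrophil genes 1 was higher in each compartment. The epithelial one was Retnlg, a resistin-like protein (14.6, 8.43, 10.8 and 4.94 against 3.05, 0.791, 0.675 and 2.4). Without epithelial replicate 4 alone, 5 leukocyte, 5 T cell, 3 B cell, 3 plasma cell and 5 neutrophil genes were higher in stroma, and leaving out single libraries gave at most 2 macrophage, 1 mast cell and 2 platelet calls in a direction. Without both libraries of animal a, 4 leukocyte, 5 T cell, 2 B cell, 2 plasma cell and 5 neutrophil genes were higher in stroma. The part of these cells in the results below was not tested.

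**Figure D3:**
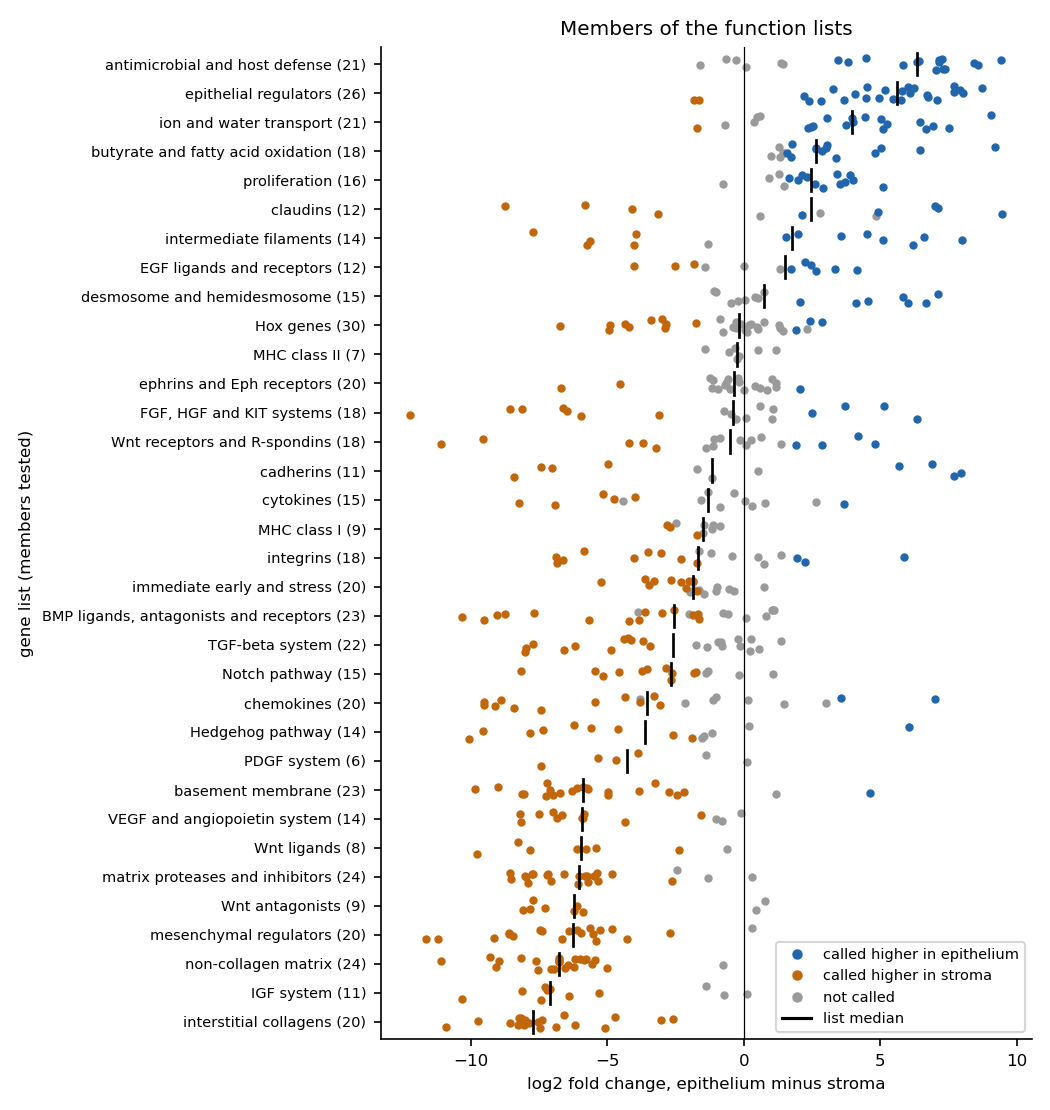
Each point is 1 tested member of a function list, plotted by its log2 fold change, epithelium minus stroma, with called genes in blue (higher in epithelium) or orange (higher in stroma) and black bars at list medians. Interstitial collagens had the lowest median of these lists (-7.72, 20 of 20 called higher in stroma) and antimicrobial and host defense genes the highest (6.32, 15 of 21 called higher in epithelium).

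Transport genes of the colon were higher in epithelium for 16 of 21 tested (median 3.94). Slc26a3, the chloride and bicarbonate exchanger of colonocytes, was at 6.5, 13.6, 12.4 and 10.7 in epithelium and 0.0144, 0.0198, 0.016 and 0.184 in stroma (7.53 ± 1.01, adjusted p = 4.79e-04). Cftr, the chloride channel of crypt cells, was at 10.2, 8.86, 8.08 and 6.42 and 0.0139, 0.0037, 0.00444 and 0.358 (6.46 ± 1.44, adjusted p = 0.00629). Ano1, the chloride channel of interstitial cells of Cajal, was the only member called the other way, at 0.643, 0.633, 0.826 and 0.358 against 2.4, 1.12, 1.16 and 3.42 (-1.71 ± 0.43, adjusted p = 0.0114), and without stromal replicate 4 its change did not pass the fold threshold (-1.24). Butyrate, made by bacteria, is the main fuel of colonocytes, and 13 of 18 genes of its uptake and of fatty acid oxidation were higher in epithelium (median 2.63). Slc5a8, which takes up butyrate with sodium, was at 3.01, 2.86, 3.81 and 2.94 in epithelium and at most 0.0155 in stroma (9.20 ± 0.70, adjusted p = 3.20e-05).

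Of 21 antimicrobial and host defense genes tested, 15 were higher in epithelium. Pigr, the receptor that carries antibodies across the epithelium, was at 109, 151, 142 and 107 in epithelium and 0.0435, 0.0194, 0.0185 and 3.17 in stroma (7.29 ± 1.85, adjusted p = 0.0118). Reg3b, a bactericidal lectin, was at 33.4, 27.1, 12.3 and 114 against 0.00235, 0.00752, 0.00435 and 1.4 (7.04 ± 1.77, adjusted p = 0.0112). Its highest rescaled level was in epithelial replicate 4, whose factor was 4.51. Muc13, a membrane mucin, was at 34.5, 38, 43.1 and 43 against 0.497, 0.566, 0.383 and 0.532 (6.32 ± 0.25, adjusted p = 5.70e-06), and it differed less than most among the stromal libraries.

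Junction genes split by family member. Of 12 claudins tested, which seal tight junctions, 5 were higher in epithelium and 4 in stroma, the latter 2 when any 1 of epithelial replicates 2 and 3 and stromal replicates 1 to 3 was left out. Cldn8 was at 3.12, 0.876, 1.84 and 1.93 in epithelium and at most 0.0103 in stroma, at least 152-fold higher, and Cldn5, the claudin of endothelium, had no count in any epithelial library and was at 0.669, 0.387, 0.734 and 0.146 in stroma. Of 11 cadherins 4 were higher in epithelium and 4 in stroma. Cdh17, the intestinal cadherin, was at 18.5, 25.1, 24 and 24.1 against 0.0503, 0.0536, 0.0529 and 0.218 (7.93 ± 0.63, adjusted p = 3.77e-05), and Cdh11, a cadherin of fibroblasts, was at 0.0396, 0.00666, 0.00956 and 0.0168 against 5.83, 5.56, 4.85 and 7.28 (-8.43 ± 0.56, adjusted p = 2.21e-05). Of 15 desmosome and hemidesmosome genes 7 were higher in epithelium. Among intermediate filaments 8 of 14 were higher in epithelium and 5 in stroma, including Vim, the filament protein of mesenchymal cells, at 0.619, 0.155, 0.344 and 2.44 against 50.9, 37, 32.1 and 68.9 (-5.75 ± 0.88, adjusted p = 9.57e-04).

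Transcription factors known to set epithelial identity were higher in epithelium for 24 of 26 members (median 5.60). Cdx2, the homeobox factor of the hindgut, was at 3.27, 7.38, 5.41 and 5.37 in epithelium and 0.0090, 0.00898, 0.0111 and 0.0717 in stroma (7.70 ± 0.76, adjusted p = 1.09e-04). Hnf4a, a nuclear receptor of absorptive cells, was at 19.3, 27.3, 23.6 and 20.6 and 0.198, 0.585, 0.125 and 0.493 (6.02 ± 0.55, adjusted p = 7.18e-05). The other 2 members were higher in stroma. Klf4, which promotes goblet cell maturation in the colon and is also an early response gene of other cells, was at 11.8, 13.6, 12.6 and 13.5 against 35.8, 35, 28.5 and 60.9 (-1.64 ± 0.27, adjusted p = 0.00129). Hes1, a Notch target, was at 14.4, 5.36, 5.51 and 5.72 against 25.7, 22.3, 15.1 and 45.9 (-1.82 ± 0.44, adjusted p = 0.00993). Without stromal replicate 4 neither passed the fold threshold (-1.26 and -1.34).

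Mesenchymal regulators were higher in stroma for 19 of 20 tested (median -6.26, or -5.20 with genes at their bound). Foxf1, a Hedgehog-responsive factor of gut mesenchyme, was at 6.33, 4.46, 4.41 and 6.34 in stroma and at most 0.0199 in epithelium, at least 168-fold higher. Snai2, a repressor of epithelial genes that binds E-boxes, was at 2.13, 3.49, 3.12 and 1.42 and at most 0.00126 in epithelium, at least 69.4-fold higher. Zeb1, another such repressor, was at 6.77, 6.09, 5.0 and 12.9 against 0.122, 0.00327, 0.0116 and 0.695 (-5.26 ± 1.38, adjusted p = 0.014). Srf, which muscle and other cells share, was not called (0.28 ± 0.44, adjusted p = 0.66).

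Promoters were then searched for short motifs known to bind factors of these lists. In RefSeq promoter windows of GRCm38.p6, from 250 bases before to 50 after a start, the E-box CAGGTG was searched on both strands. It was in 29.2% of 1714 windows of genes higher in epithelium, in 17.3% of 3091 windows of genes higher in stroma, in 18.7% of 14875 windows of all genes tested and in 20.2% of all 32851 windows. The 9 letters CAAAGTCCA of the HNF4 motif, whose closing letters CA can also open that E-box, were in 1.28%, 0.356%, 0.45% and 0.475% of them. The letters CCATAAA, bound by CDX factors, were in 2.04%, 2.01%, 1.79% and 2.75%, the GRHL letters AACCGGTT in 0.117%, 0.194%, 0.235% and 0.146%, and the CArG box of SRF in 1.58%, 1.23%, 1.34% and 1.63%. Median GC content of the windows was 58.0% for genes higher in epithelium and 59.7% for genes higher in stroma. These shares are descriptions, not tests, and a match of letters is not a measured binding site. They count windows, not genes: the 1714 windows belong to 1376 genes and the 3091 to 2375. Bmp4, Snai1 and Wnt2b, called higher in stroma, also have the E-box in a window. In the windows below, 40 bases are printed 5′ to 3′ on the strand of the gene, with the motif in capitals (CACCTG is the E-box read on the other strand), and each belongs to a gene called higher in epithelium.
Cldn7, chr11:69965347-69965386: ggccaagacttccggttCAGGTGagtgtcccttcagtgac
Elf3, chr1:135258590-135258629: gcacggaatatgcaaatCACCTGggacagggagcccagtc
Krt8, chr15:102004431-102004470: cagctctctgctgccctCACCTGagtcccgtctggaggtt
Itgb6, chr2:60673731-60673770: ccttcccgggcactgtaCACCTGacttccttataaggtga
Lypd8, chr11:58380416-58380455: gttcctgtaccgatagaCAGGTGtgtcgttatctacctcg
Slc26a3, chr12:31437989-31438028: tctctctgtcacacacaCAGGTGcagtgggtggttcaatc
Muc13, HNF4 motif, chr16:33794287-33794326: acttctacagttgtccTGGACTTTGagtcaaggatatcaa

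Hox genes, which keep the positional identity of cells along the gut, were mostly not called. Of 30 tested, 3 were higher in epithelium, a share near the 11.5% of all genes, and 10 in stroma, beside 19.4% of all genes. The list median was -0.19. No test compared the clusters. The 3 were all of cluster b: Hoxb9 was at 5.44, 2.47, 3.22 and 3.75 in epithelium and 0.451, 0.857, 0.437 and 0.321 in stroma (2.85 ± 0.40, adjusted p = 5.95e-04). Hoxb6 was at 1.8, 6.79, 6.24 and 3.04 against 0.437, 1.03, 1.33 and 0.523 (2.43 ± 0.53, adjusted p = 0.00571), and Hoxb8 at 0.169, 1.15, 1.09 and 0.633 against 0.157, 0.188, 0.255 and 0.218 (1.90 ± 0.57, adjusted p = 0.0265), where the compartments overlapped and the call was lost when any 1 of 4 libraries was left out (adjusted p = 0.0637 to 0.074). In stroma 5 genes of cluster c and 4 of cluster d were higher, and the remaining call was in cluster a. Hoxd10 was at 0.65, 0.703, 0.794 and 0.79 in stroma and at most 0.00858 in epithelium, at least 16.9-fold higher, and Hoxc8 was at 0.20, 0.21, 0.24 and 0.518 and at least 11.1-fold higher. Neighbors in a cluster overlap with antisense transcripts, and whether reads were counted by strand is not stated. Without epithelial replicate 1 there were 6 Hox genes higher in epithelium, and 5 without epithelial replicate 4 or stromal replicate 3. Without both libraries of animal a, 5 Hox genes were higher in epithelium and 10 in stroma.

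**Figure D4:**
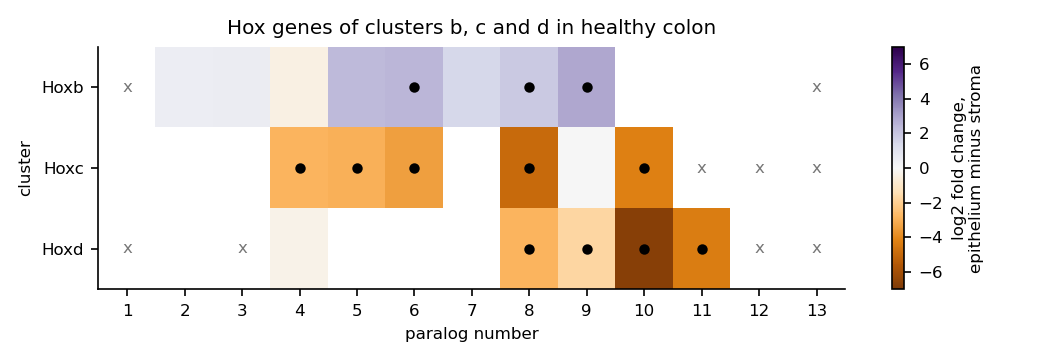
Tiles show the log2 fold change, epithelium minus stroma, of Hox genes of clusters b, c and d by paralog number, purple where higher in epithelium and orange where higher in stroma. Cluster a is not drawn. Dots mark called genes (3 purple, all in cluster b, and 9 orange), crosses mark genes with too few counts to test, and empty places have no gene in the list.

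Matrix genes were with few exceptions stromal. All 20 interstitial collagens, 23 of 24 other matrix genes and 21 of 23 basement membrane genes were higher in stroma (medians -7.72, -6.77 and -5.88). Col1a1, the main chain of fibrillar collagen, was at 40.1, 18.4, 27.1 and 127 in stroma and 0.371, 0.0067, 0.00985 and 0.183 in epithelium (-8.57 ± 1.47, adjusted p = 0.00168). Col4a1, the network-forming collagen of basement membranes, was at 24.5, 22.9, 18.8 and 16.2 and 0.13, 0.00148, 0.0345 and 0.516 (-6.99 ± 1.29, adjusted p = 0.00237). Nid1, which links laminin to that network, was at 29.3, 38.4, 21.8 and 107 and 0.318, 0.0263, 0.012 and 0.997 (-7.22 ± 1.44, adjusted p = 0.00351). For all 3 genes every stromal library lay above every epithelial one.

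The single basement membrane gene higher in epithelium (2 genes without stromal replicate 4) was Lamb3, the beta chain of laminin-332, at 0.508, 0.567, 0.947 and 0.761 against 0.0279, 0.00555, 0.0199 and 0.0582 (4.62 ± 0.66, adjusted p = 6.75e-04). Lama3, the alpha chain of the same laminin, was at 0.235, 0.47, 0.83 and 0.626 against 4.07, 4.87, 5.11 and 0.543 and was higher in stroma (-2.76 ± 0.65, adjusted p = 0.0085), although stromal replicate 4 overlapped with the epithelium. Of 18 integrins, the cell receptors for matrix, 3 were higher in epithelium and 9 in stroma. The 3 were Itgb6, at 2.58, 0.788, 1.11 and 2.03 against 0.0364, 0.00276, 0.00527 and 0.0642 (5.86 ± 0.92, adjusted p = 0.00108), Itga2 (2.25 ± 0.32, adjusted p = 6.55e-04) and Itga3 (1.96 ± 0.40, adjusted p = 0.00416). Itgb4, the integrin chain of hemidesmosomes, was at 2.31, 3.6, 3.42 and 5.09 in epithelium and 3.22, 3.19, 3.42 and 0.337 in stroma (0.50 ± 0.59, adjusted p = 0.544). Of 24 matrix proteases and inhibitors 21 were higher in stroma, with the gelatinase Mmp2 at 15.3, 17.8, 14.2 and 29.9 against 0.0146, 0.0116, 0.0181 and 0.339 (-8.00 ± 1.15, adjusted p = 6.88e-04). Thbs1, a matrix protein of wounds and platelets, was the only non-collagen matrix gene not called (-0.79 ± 0.80, adjusted p = 0.485).

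Signaling genes were read by role. In the Hedgehog pathway 1 of 14 genes tested was higher in epithelium and 9 in stroma. Ihh, the Indian hedgehog ligand, was at 1.17, 2.44, 2.12 and 1.91 in epithelium and 0.0166, 0.0047, 0.00469 and 0.0869 in stroma (6.06 ± 0.91, adjusted p = 8.84e-04). Ptch1, the Hedgehog receptor and a target of the pathway, was at 1.18, 0.711, 1.84 and 1.14 and 8.15, 8.51, 6.77 and 6.05 (-2.60 ± 0.31, adjusted p = 2.64e-04). Gli1, the factor that the pathway induces, was at 0, 0.00263, 0.0299 and 0.0636 and 1.39, 1.18, 1.18 and 2.07 (-6.21 ± 0.88, adjusted p = 6.37e-04). The ligand was thus on the epithelial side and the receptor and targets on the stromal side in every library. Another ligand, Dhh, which Schwann cells and endothelium use, was at 1.05, 0.635, 1.47 and 0.241 in stroma and at least 27-fold higher there. Shh had too few counts to test.

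**Figure D5:**
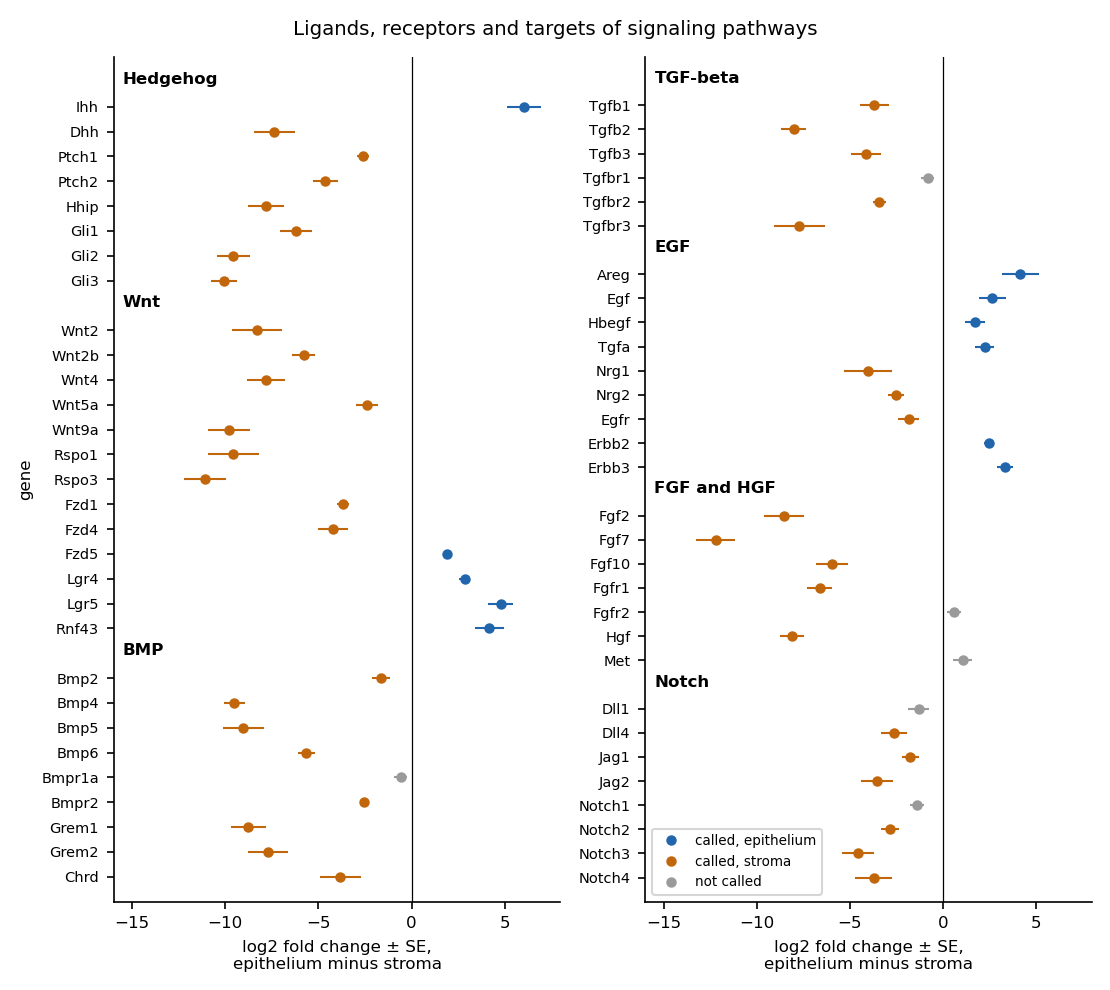
Points show the log2 fold change, epithelium minus stroma, with SE bars, for members of 7 signaling systems, in blue where called higher in epithelium, orange where called higher in stroma and gray where not called. Ihh, Fzd5, Lgr4, Lgr5, Rnf43, Areg, Egf, Hbegf, Tgfa, Erbb2 and Erbb3 lie on the epithelial side, and the Wnt, BMP, TGF-beta and FGF ligands shown lie on the stromal side. The lowest values belong to genes with hardly any epithelial counts and are not measured fold changes.

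Of 8 Wnt ligands tested 7 were higher in stroma, and 7 of 9 secreted Wnt antagonists were too. Wnt2b, a canonical Wnt of the stem cell niche, was at 3.35, 5.03, 3.34 and 8.75 in stroma and 0.0214, 0.148, 0.103 and 0.0855 in epithelium (-5.79 ± 0.61, adjusted p = 1.42e-04). Rspo3, an R-spondin that potentiates Wnt signals, was at 0.655, 1.39, 1.0 and 2.87 and at most 0.00255, at least 47.7-fold higher. On the receptor side, Lgr4, a broad R-spondin receptor, was at 8.12, 5.93, 6.04 and 4.92 in epithelium against 0.986, 0.80, 0.548 and 1.11 (2.86 ± 0.29, adjusted p = 1.15e-04), and Rnf43, the ligase that R-spondins restrain, was at 1.94, 2.34, 1.95 and 1.1 against 0.0593, 0.0145, 0.0659 and 0.264 (4.18 ± 0.77, adjusted p = 0.00242). With Lgr5 and Fzd5 (1.92 ± 0.25, adjusted p = 4.37e-04) these made the 4 of 18 receptors and R-spondins that were higher in epithelium. The 5 higher in stroma included both R-spondins tested there, Rspo1 and Rspo3, and the receptors Fzd1 (-3.70 ± 0.33, adjusted p = 6.08e-05) and Fzd4 (-4.21 ± 0.80, adjusted p = 0.00282). Sfrp1, a Wnt antagonist, was at 27.1, 34, 39.8 and 10.3 in stroma against 0.0293, 0.00196, 0.353 and 0.138 (-7.73 ± 1.22, adjusted p = 0.0011).

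BMP genes were higher in stroma for 14 of 23 tested, ligands and antagonists among them. Bmp4, the ligand that promotes epithelial maturation, was at 14, 18.7, 24.6 and 9.64 in stroma and at most 0.0607 in epithelium, at least 481-fold higher. Grem1, an antagonist made below the crypt base, was at 4.2, 12.2, 5.39 and 7.49 and 0.0413, 1.73e-04, 0.0245 and 5.50e-05 (-8.76 ± 0.93, adjusted p = 1.59e-04). The receptor chain Bmpr1a was at 4.68, 5.48, 5.05 and 3.91 in epithelium and 7.79, 5.59, 3.46 and 11.6 in stroma (-0.57 ± 0.34, adjusted p = 0.224), so its compartments overlapped, while Bmpr2 was higher in stroma (-2.56 ± 0.23, adjusted p = 6.02e-05). In the TGF-beta system 11 of 22 genes were higher in stroma. Tgfb2, the TGF-beta ligand with the largest difference, was at 3.5, 3.64, 2.35 and 4.54 against 0.0308, 0.0118, 0.00534 and 0.00321 (-8.03 ± 0.65, adjusted p = 4.06e-05), followed by Tgfb3 (-4.15 ± 0.80, adjusted p = 0.0029) and Tgfb1 (-3.69 ± 0.79, adjusted p = 0.00498). The receptor Tgfbr2 was at 24.5, 24, 19.2 and 33 against 3.91, 1.46, 1.91 and 2.07 (-3.43 ± 0.36, adjusted p = 1.42e-04), and its partner Tgfbr1 was not called (-0.82 ± 0.35, adjusted p = 0.0982).

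The EGF family had members on both sides. Of 12 genes tested 6 were higher in epithelium and 3 in stroma, the latter 1 without epithelial replicate 3 or stromal replicate 2. Areg, an EGF receptor ligand of wounded and inflamed epithelium, was at 67.9, 15.5, 17.4 and 23.8 in epithelium and 0.714, 0.192, 0.958 and 5.18 in stroma (4.14 ± 1.00, adjusted p = 0.00907). Erbb3, the receptor of neuregulins, was at 11.4, 8.65, 7.61 and 6.64 against 0.965, 1.15, 0.316 and 0.984 (3.33 ± 0.41, adjusted p = 3.15e-04), and Nrg2, a neuregulin, at 0.478, 0.211, 0.212 and 0.433 against 1.42, 1.71, 1.39 and 3.16 (-2.54 ± 0.44, adjusted p = 0.00172). Egfr was at 1.17, 1.68, 1.11 and 0.88 against 2.67, 3.16, 1.26 and 10.4 and was called higher in stroma, with overlap (-1.85 ± 0.58, adjusted p = 0.0313). The calls of Egfr and of Hbegf (1.71 ± 0.55, adjusted p = 0.036) were lost when any 1 of 5 and of 4 libraries was left out (adjusted p = 0.0519 to 0.0803 and 0.0526 to 0.0876). Of 18 genes of the FGF, HGF and KIT systems 7 were higher in stroma, with the ligands Fgf7 at 1.52, 1.71, 1.48 and 4.7 and Hgf at 0.624, 0.778, 0.487 and 0.933, at least 103-fold and 63.7-fold higher. Their epithelial receptors were not called, with Fgfr2 at 5.0, 6.51, 6.54 and 3.07 against 4.92, 4.17, 3.29 and 1.57 (0.60 ± 0.37, adjusted p = 0.243) and Met at 2.03, 2.37, 1.45 and 0.523 against 0.725, 0.998, 1.07 and 0.285 (1.05 ± 0.52, adjusted p = 0.141). The 4 higher in epithelium included the protease St14, which activates HGF, and its inhibitors Spint1 and Spint2 (5.13 ± 0.45, adjusted p = 5.85e-05).

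In the IGF system 8 of 11 genes were higher in stroma. Igf1, the growth factor, was at 5.69, 5.03, 2.92 and 10.7 in stroma and 0.0474, 0.00614, 0.0164 and 0.0852 in epithelium (-7.45 ± 0.86, adjusted p = 2.30e-04), and Igfbp7, an IGF-binding protein of vessels, was at 212, 285, 219 and 169 and 1.49, 0.022, 0.747 and 3.8 (-7.23 ± 1.18, adjusted p = 0.00131). The receptor Igf1r was not called (-1.41 ± 0.28, adjusted p = 0.00354), since its change did not pass the fold threshold, which it did without epithelial replicate 4 (-1.59, adjusted p = 0.00207). In the other systems, 4 of 6 PDGF, 11 of 15 Notch and 11 of 14 VEGF and angiopoietin genes were higher in stroma. Of 20 ephrins and Eph receptors 17 were not called, and the 1 higher in epithelium (2 without stromal replicate 3) was Ephb2 (2.07 ± 0.51, adjusted p = 0.00998), a receptor that positions cells along the crypt.

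Of 20 chemokines tested 11 were higher in stroma and 2 in epithelium, and of 15 cytokines 5 and 1. Over all genes 19.4% were higher in stroma and 11.5% in epithelium, so neither epithelial count exceeds that share. Without stromal replicate 1 the epithelial chemokine calls were 1, and without stromal replicate 4 the stromal cytokine calls were 9. Ccl28, which attracts antibody-secreting cells to mucosa, was at 6.69, 5.85, 5.74 and 4.01 in epithelium and 0.0106, 0.0185, 0.0247 and 0.124 in stroma (7.0 ± 0.81, adjusted p = 2.28e-04). Ccl11, the eosinophil attractant eotaxin, was at 30.6, 32.6, 24.9 and 84.1 in stroma and 0.0796, 5.13e-04, 0.195 and 0 in epithelium (-9.14 ± 1.04, adjusted p = 2.16e-04). Cxcl12, a niche chemokine of stroma and endothelium, was at 14.5, 32.2, 24.7 and 4.71 and 0.166, 0.00613, 0.0609 and 0.224 (-7.42 ± 1.12, adjusted p = 8.72e-04). The last was lowest in stromal replicate 4, in which Ccl2, a monocyte attractant, stood at 133, against 8.54, 9.7, 4.39 and 133 over the 4 libraries (-8.91 ± 1.67, adjusted p = 0.00257). Il18, a cytokine of the epithelium, was at 1.2, 0.364, 2.63 and 7.04 against 0.41, 0.333, 0.108 and 0.0143 (3.66 ± 1.09, adjusted p = 0.0248), with overlap, and the call was lost when any 1 of 3 libraries was left out (adjusted p = 0.0501 to 0.0621). Il33, an alarmin of stromal nuclei, was at 4.06, 3.38, 1.78 and 17 against 0.947, 0.459, 0.049 and 0.17 (-4.00 ± 0.99, adjusted p = 0.0104). Without both libraries of animal a, 9 cytokine genes were higher in stroma.

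EdgeR called none of 7 MHC class II genes, of which 0 had an unadjusted p under 0.05, limma-voom called 1 and DESeq2 0, and without epithelial replicate 2 there was 1 call. Of 9 class I genes 3 were higher in stroma, or 5 without replicate 4 of either compartment. Cd74, the invariant chain of class II, was at 2.55, 62.5, 14.3 and 57.8 in epithelium and 15.9, 29.4, 63.2 and 62.8 in stroma (-0.32 ± 0.83, adjusted p = 0.797), and in epithelium replicates 1 and 3 were low and replicates 2 and 4 high. Tap1, the peptide transporter of class I, was at 0.0878, 0.61, 0.456 and 0.56 against 3.3, 4.52, 3.6 and 0.701 (-2.82 ± 0.68, adjusted p = 0.00916). Without both libraries of animal a, 6 class I genes were higher in stroma. Of 20 immediate early and stress genes, many of which respond to tissue digestion, 10 were higher in stroma (median -1.86). Egr1 was at 87.8, 35, 38.2 and 58.9 in epithelium and 311, 265, 229 and 580.0 in stroma (-2.66 ± 0.45, adjusted p = 0.00163), so both compartments held it at high levels. The part of the digestion in this was not tested.

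All 13 mitochondrially encoded protein genes were higher in epithelium (median 3.73). They took 4.29% ± 0.438 of the counts in epithelium and 1.23% ± 0.571 in stroma (SD, n = 4 each; difference 3.07, 2-sided exact permutation test, p = 0.0286, the smallest that 4 against 4 allows). This share depends on the mitochondrial ribosomal RNA in the same libraries, which took 44.7% to 79.0% of the counts in epithelium and 14.4% to 22.8% in stroma. Reads of mitochondrial genes can also fall on copies in the nuclear genome, and how they were assigned is not stated.

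The same 2 gates were set in colon tumors, where the 4 stromal libraries were unlike each other. Endothelial markers summed to 7.84, 8.78, 189 and 194 rescaled RPKM in tumor stroma replicates 1 to 4, pericyte markers to 0.983, 2.44, 26.1 and 26.6, leukocyte markers to 8.52, 5.94, 75.5 and 80.9 and neutrophil markers to 35.1, 8.56, 1231 and 431. Replicates 1 and 2 held no more of the endothelial markers than tumor epithelium (6.40 to 10.2), and replicates 3 and 4 held leukocyte RNA far above it (0.812 to 2.06). By their titles tumor stroma replicates 3 and 4 came from the animals of tumor epithelium replicates 1 and 2. Of 16985 genes tested between tumor epithelium and tumor stroma edgeR called 5 (0.0294%), all higher in stroma, while 2507 had an unadjusted p under 0.05. This count rests on the libraries and the tool. It was 4471 without tumor stroma replicates 1 and 2 (1309 higher in epithelium and 3162 in stroma) and 3 without replicates 3 and 4. It was 840.0 without replicate 1, 799 without replicate 2, and 0 or 1 without any other single library, and DESeq2 called 1246 and limma-voom 0. The pairs left out were picked by their marker levels, so their counts are descriptions. Over all 16 libraries the difference between compartments was not the same in healthy colon and tumor for 2938 of 20901 genes tested (14.1%). Epithelium minus stroma was higher in healthy colon for 1515 of them and lower there for 1423. A higher value can also come from a stromal excess in tumor. On that side were 2 leukocyte, 3 neutrophil and 3 MHC class II genes. The medians of these lists were -0.82, -0.95 and -0.25 in healthy colon and -4.82, -7.67 and -4.25 in tumor. Of 5702 genes called in healthy colon, 5691 were tested for this difference between healthy colon and tumor and 2511 called. Lypd8 was at 30.9, 23.4, 104 and 62.2 in tumor epithelium and 36.5, 24.7, 51.9 and 61.2 in tumor stroma (rescaled over the 16 libraries), and its difference was larger in healthy colon by 9.12 ± 1.90 (adjusted p = 0.00457). For Hnf4a the values were 2.56, 3.04, 6.85 and 4.56 and 4.31, 2.31, 0.406 and 0.892, and the difference was larger by 5.02 ± 0.89 (adjusted p = 0.0016). Bmp4 was at 0.806, 0.67, 0.502 and 0.573 and 0.873, 1.9, 2.21 and 1.9, with -7.94 ± 0.61 (adjusted p = 1.02e-05), and Pdgfra at 0.516, 1.73, 0.248 and 0.34 and 0.206, 0.433, 1.7 and 0.715, with -7.23 ± 1.03 (adjusted p = 3.74e-04), where the negative sign is a stromal excess larger in healthy colon.

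The interaction called 12 of 16 epithelial markers, 10 colonocyte, 7 goblet cell, 4 of 11 fibroblast and 10 of 13 smooth muscle genes, and none of 14 endothelial and 6 pericyte genes. Of those, 2 and 1 had an unadjusted p under 0.05, limma-voom called 1 and 0, and DESeq2 2 and 0. Without tumor stroma replicates 3 and 4 the interaction called 12 endothelial and 3 pericyte genes. Without tumor stroma replicates 1 and 2 it called 0 of either, and 7 epithelial markers in place of 12. These values stand beside the purity of the libraries. The median epithelial marker in healthy stroma was at 0.194%, 0.180%, 0.0640% and 3.05% of its mean in healthy epithelium, and in tumor stroma at 94.0%, 51.8%, 19.0% and 11.7% of its mean in tumor epithelium. The median fibroblast marker in healthy epithelium was at 0.0134% to 0.886% of its mean in healthy stroma, and in tumor epithelium at 2.45% to 4.26% of its mean in tumor stroma. How much of the interaction goes with epithelial and leukocyte transcripts in tumor stroma was not tested. Genotype, tamoxifen, strain and tumor differ between these mice at once and cannot be told apart.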

How the data were processed

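RNA had been amplified to cDNA with the NuGEN Ovation system and sequenced as single reads on an Illumina HiSeq. The authors mapped reads to mm10, with Bowtie 2 named in the submitters' processing notes, analyzed them with HTSstation, and deposited expected counts without normalization and RPKM values (reads per kilobase of transcript, scaled to mapped reads) for 45706 genes, of which 45143 matched a GENCODE M21 symbol. The annotation, the handling of multiply mapped reads and the use of strand are not given in the sources used here. Expected counts above 0 were fractional in 99.6% of cases and were rounded.

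The 4 epithelial and 4 stromal libraries of healthy colon were fitted alone, on genes kept by filterByExpr, with TMM normalization and edgeR 4.0.16 (R 4.3.3), whose quasi-likelihood test was run in its robust form. P-values were adjusted by the Benjamini-Hochberg method over all genes tested. The difference between healthy colon and tumor was an interaction over 16 libraries. The study's own tool, limma-voom (limma 3.58.1), and DESeq2 1.42.0 were alternatives, with RLE size factors, other filters, limma on log2(RPKM + 1) and log2(RPKM + 0.1), all 40 libraries, the replicate number as a block, no mitochondrial genes, no fold threshold, and each library left out. Leaving out both libraries of animal a or pairs of tumor stroma libraries, the animal as a random block, and all alternatives of the tumor comparison were added after the data were seen.

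Rescaled RPKM are the deposited RPKM times 1 factor per library, 0.66 to 4.51, that brings the library to its TMM scale. The highest factor was that of epithelial replicate 4. Limma on log2 RPKM was run on the deposited values, without these factors. Per-library depth is given with the results. Replicates of a compartment differed by 23.4 to 852 times counting error over 12 pairs, more than counting alone gives. In simulated counts with 200 changed genes of 18468, edgeR called 12%, 92%, 100% and 100% of genes changed 2, 4, 8 and 16-fold. It made 5 false calls. The simulation gave every gene the same spread between replicates beyond counting and changed far fewer genes than were called here. In the libraries the spread differed from gene to gene, so these rates do not give the power of the test here.

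Genes were named by this rule: in each direction the 10 called with the greatest fold among those that did not overlap and reached 5 in mean log2 CPM; in each of 60 lists the most abundant members and those called against most of the list; called ligands and receptors; and Epcam and Ptprc. Members not called and those named for an overlap or a lost call were picked with their values known. Some results are not reported here. The lists hold 809 symbols, of which 708 were tested. The comparison and the lists were chosen with earlier results of these data known.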

Additional observations from a re-analysis of the deposited data

Results flagged for a closer look

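A library counted as standing apart from the other 3 of its compartment where the gap to its nearest neighbor took up more of the whole range than Dixon's 95% critical value for 4 samples allows. Over the named genes, the total counts and the mitochondrial shares, this held in 66 of 280 sets of 4 values (23.6%). Chance gives about 1 in 20 for independent sets of normally distributed values, a shape that was not checked for these RPKM. The named genes were partly picked with their values known and share their libraries, so the share is a description. Stromal replicate 4 was the library apart in 42 of them, epithelial replicate 4 in 10 and epithelial replicate 1 in 9. Values are rescaled RPKM of the library apart. Some of the 66 sets rest on very few reads. Bmp4, Dhh, Fgf7, Mmrn1 and Rspo3 had at most 3 counts in every epithelial library, and Cldn8 at most 3 in every stromal one.

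In stromal replicate 4, 30 transcripts higher in epithelium, or without a call in the case of Cldn3 and Cldn4, stood far above the other stromal libraries: Areg 5.18, Car1 4.53, Ccl28 0.124, Cdh1 1.15, Cdh17 0.218, Cdx2 0.0717, Cftr 0.358, Cldn3 1.74, Cldn4 1.1, Cldn8 0.0103, Cyp2c55 0.427, Elf3 0.442, Epcam 2.99, Gsdmc2 0.247, Hao2 0.0479, Ihh 0.0869, Krt20 0.449, Krt8 1.23, Lypd8 8.86, Muc2 12.7, Pigr 3.17, Reg3b 1.4, Slc26a3 0.184, Slc5a8 0.0155, Slc6a14 0.0155, Spint1 0.476, Sprr2a1 0.0848, Sprr2a2 0.0894, Sprr2a3 0.0927 and Sult1b1 0.0295. The summed level of the 16 epithelial markers was also highest in this library among the stromal ones, and its part in these values was not tested.

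Other transcripts highest in stromal replicate 4 were Cadm3 12.4, Ccl11 84.1, Ccl2 133, Cd248 60.7, Crispld2 9.05, Fgf7 4.7, Hoxc8 0.518, Il33 17, Reck 12.3, Smoc2 4.86 and Thbs1 96.9, while Itgb4 0.337 was lowest there.

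Epithelial replicate 4 was highest for Bmp4 0.0607, Crispld2 0.0267, Dclk1 2.28, Fgf7 0.00285, Igkc 2218, Mmp2 0.339, Ptprc 0.795, Rgs5 0.925, Sh2d6 10.2 and Tgfb1 0.415. Epithelial replicate 1 was highest for Areg 67.9, Cadm3 0.0203, Dhh 0.0203, Hes1 14.4, Mmrn1 0.00314, Pdgfra 0.105 and Rspo3 0.00255, and lowest for Cdh17 18.5 and St14 2.79. Epithelial replicate 3 was highest for Rspo1 0.00175 and Slc5a8 3.81, and stromal replicate 1 for Hbegf 5.75 and Myh11 28.4. Stromal replicate 3 was highest for Hbb-bs 489, a globin of red cells.

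The compartment difference itself differed between healthy colon and tumor for 2938 of 20901 genes, by the edgeR interaction test over 16 libraries at the thresholds used above. On the log2 scale the epithelial excess was larger in healthy colon by 9.12 for Lypd8 and 5.02 for Hnf4a. The interaction was -7.94 for Bmp4 and -7.23 for Pdgfra, whose stromal excess was larger in healthy colon.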

How the results depend on the processing

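In the healthy comparison edgeR called 2127 genes higher in epithelium and 3575 in stroma, 5702 in all, and no named gene that was called, here or in an alternative, changed direction. Uncalled genes could, as Smoc2 (0.74) and Thbs1 (0.29) did without both libraries of animal a. Genes with at least 10 counts in every library gave 2245 calls (1157 and 1088, so that epithelium had more), with 10560 genes tested in place of 18468. On the deposited RPKM, which were not rescaled, limma on log2(RPKM + 1) gave 2119 (425 and 1694). On log2(RPKM + 0.1) it gave 991 and 5462. The part of the missing factors in these counts was not tested. Limma-voom, DESeq2, RLE size factors, no filter, all 40 libraries, no mitochondrial genes and no fold threshold gave totals within 1.5 times the main one. Leaving out each library in turn, or both of animal a, gave 5249 to 7241 calls, 1985 to 2604 in epithelium and 3180 to 4661 in stroma. For the interaction, with 2938 calls, leaving out each library gave 2393 to 3046 (1191 to 1595 and 1202 to 1566). Which direction had more calls there changed with the fit, and limma-voom gave 1349 and 1438. Without tumor stroma replicates 3 and 4 the count of genes whose difference was lower in healthy colon was 2167. Between tumor compartments edgeR called 5 genes, 0 to 840.0 with single libraries left out, 4471 without tumor stroma replicates 1 and 2, and 3 without replicates 3 and 4. DESeq2 called 1246 and limma-voom 0. The difference in mitochondrial coding share stayed between 2.88 and 3.34 percentage points, at the smallest p that 4 against 4 or 3 against 4 allows here.

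The replicate numbers did not pair the samples: the deviations of same-numbered libraries from their group means correlated at -0.05, 0.11, 0.02 and -0.04. Not every library correlated best with its own number. With the replicate number as a block there were 5335 calls (1940 and 3395), and for the interaction 973 and 1037 in place of 1515 and 1423. That block does not pair animals: the labels of tumor stroma give number 3 to 2 libraries, 1 of which was numbered 4 here, and by the titles 3 animals gave both compartments, of which only animal a carries 1 number in both. With the animal as a random block, limma-voom gave 1367 and 1462 for the interaction. The healthy fit, with 1 such animal, allowed no estimate of its correlation.

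Of 120 named genes called, 84 kept the call in every alternative that tested them and 36 are counted as losing it in at least 1, most often on log2(RPKM + 1). Among the 36, Cd248, Cadm3 and Ccl2 are counted only because DESeq2 gave them no adjusted p. Their log2 fold changes there were -13.7, -9.75 and -8.71. The filter at 10 counts tested only 55 of the 138 named genes. List counts above 0 moved by over 1.5 times for 46 of 68 with the filter at 10 counts and for 45 on log2(RPKM + 1), against 3 with DESeq2 and 5 with limma-voom. A 2-fold change lies under the fold threshold, and a missing call does not show equal levels.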
